A study of Mus musculus with 6 samples.

Results

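Of 170532 merged regions of open chromatin in mouse embryonic fibroblasts (MEFs), 852, or 0.500% (95% exact interval 0.467 to 0.534), carried a peak in both libraries from 3% oxygen and none in either library from 20% oxygen. The regions were chosen by peak calls alone: peaks of the 4 ATAC-seq libraries that overlapped or touched were merged, and a library counted as open at a region if any of its peaks covered 1 bp or more there. MEFs were wild-type C57BL/6J cells isolated at stage E13.5 from minced embryos without head and red organs. They therefore began as a mixed primary culture and not as a clone. Hyp-Pro are proliferating MEFs at pass 1 in 3% oxygen and Hyp-Imm are MEFs immortalized in 3% oxygen, while Norm-Pro are proliferating MEFs at pass 1 in 20% oxygen and Norm-Sen are senescent MEFs in 20% oxygen. Each condition is 1 library, so no replicate error exists, no test between conditions was possible, and oxygen cannot be told apart from anything else that differed between these cultures. Intervals given here are exact binomial ones, or for medians order-statistic ones, at 95%, and cover counting error only.

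ATAC-seq uses the Tn5 transposase to cut and tag DNA that nucleosomes leave exposed, so its peaks mark promoters, enhancers and sites of architectural proteins. In low oxygen the prolyl hydroxylases slow down, the alpha subunits of the hypoxia-inducible factors (HIF) are no longer degraded, and the HIF dimer binds a short core motif near genes of glycolysis, angiogenesis and pH control. Tfcp2l1, a transcription factor of the CP2 family known from self-renewal of mouse embryonic stem cells, was profiled by ChIP-seq in the same study.

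The labels of the 4 libraries do not match the names of their deposited files. By file name the library labelled Hyp-Pro is Norm-Pro, that labelled Hyp-Imm is Norm-Sen, that labelled Norm-Pro is Hyp-Imm and that labelled Norm-Sen is Hyp-Pro. Read that way, the 852 regions would be those open only in 20% oxygen, and the regions open only in 3% oxygen would be the 4470 that are called open only in 20% oxygen here. The X chromosome split the libraries along another line. Regions on the X chromosome made up 4.81% (4.62 to 5.01) of the regions of Hyp-Pro and 1.44% (1.32 to 1.57) of those of Hyp-Imm, against 1.07% (0.994 to 1.15) in Norm-Pro and 4.48% (4.31 to 4.65) in Norm-Sen. The low values thus fall on 1 library of each oxygen level by the labels, and on both late-passage libraries by the file names, with both pass 1 libraries high. Each library is called by its label throughout, and every direction below holds for the labels only.

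Sequences of 8 of the regions are shown as examples of kinds picked by strength, place or motif, and do not stand for the set. They were read from the forward strand of the GRCm38 reference, and each is the strongest region of its kind, outside 1 chromosome not printed here and among regions of at most 300 bp. Capitals mark a match, on either strand, of the motif that the region is shown for, which describes letters and not a bound site. Matches of other motifs are left in lower case. The strongest of all lay between genes 21878 bp from the nearest transcription start site (TSS), that of Rbbp6, at chr7:123022157-123022434. All of its bases were repeat-masked, and a stretch of 49 bases occurred in it more than once.
Rbbp6: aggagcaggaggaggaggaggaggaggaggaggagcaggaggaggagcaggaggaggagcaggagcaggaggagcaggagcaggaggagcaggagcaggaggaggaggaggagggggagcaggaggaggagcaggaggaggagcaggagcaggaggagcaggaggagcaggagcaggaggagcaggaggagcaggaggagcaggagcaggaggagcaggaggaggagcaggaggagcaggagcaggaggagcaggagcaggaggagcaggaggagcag
The strongest region with no repeat-masked base and more than 1 kb from a TSS lay in an intron 22835 bp from the TSS of Angptl1, at chr1:156861777-156861961. It too held a stretch that occurred again, 58 bases long.
Angptl1: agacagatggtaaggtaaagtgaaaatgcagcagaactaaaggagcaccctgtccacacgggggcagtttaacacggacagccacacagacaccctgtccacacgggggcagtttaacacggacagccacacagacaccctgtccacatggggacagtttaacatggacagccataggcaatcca
The third is the strongest at a TSS that had no 20% oxygen peak within 1 kb and held the HIF core, ACGTG or GCGTG, at chr3:116594804-116595039. It covers a TSS of Trmt13, which encodes a tRNA methyltransferase.
Trmt13: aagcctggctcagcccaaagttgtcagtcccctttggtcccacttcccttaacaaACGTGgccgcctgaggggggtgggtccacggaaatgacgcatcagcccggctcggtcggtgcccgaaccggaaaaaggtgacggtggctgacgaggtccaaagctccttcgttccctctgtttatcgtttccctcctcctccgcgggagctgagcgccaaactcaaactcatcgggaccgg
The AP-1 motif, TGACTCA or TGAGTCA, is shown at 43 bp from a TSS of Csrp1, a cytoskeletal LIM protein, at chr1:135720104-135720345, and between genes 60783 bp from the TSS of Ly96, at chr1:16749291-16749494.
Csrp1: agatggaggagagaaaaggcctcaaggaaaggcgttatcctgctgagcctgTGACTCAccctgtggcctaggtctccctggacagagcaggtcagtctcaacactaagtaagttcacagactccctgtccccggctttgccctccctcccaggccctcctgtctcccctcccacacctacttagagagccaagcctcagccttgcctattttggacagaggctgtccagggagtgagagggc
Ly96: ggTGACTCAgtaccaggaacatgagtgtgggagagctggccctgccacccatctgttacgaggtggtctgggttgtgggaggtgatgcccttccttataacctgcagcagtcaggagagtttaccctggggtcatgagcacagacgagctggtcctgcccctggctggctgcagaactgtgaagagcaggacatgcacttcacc
The cyclic AMP response element, TGACGTCA, is shown at the TSS of Hs3st3a1, a heparan sulfate sulfotransferase, at chr11:64435077-64435341.
Hs3st3a1: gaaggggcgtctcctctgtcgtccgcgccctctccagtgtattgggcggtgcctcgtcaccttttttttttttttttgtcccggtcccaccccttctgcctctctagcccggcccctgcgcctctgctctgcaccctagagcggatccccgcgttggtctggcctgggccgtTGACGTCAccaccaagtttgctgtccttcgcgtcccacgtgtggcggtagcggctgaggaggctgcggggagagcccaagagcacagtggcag
The CTCF motif with at most 1 mismatch is shown 516 bp from a TSS of Acly, the enzyme that makes cytosolic acetyl-CoA from citrate, at chr11:100527149-100527353.
Acly: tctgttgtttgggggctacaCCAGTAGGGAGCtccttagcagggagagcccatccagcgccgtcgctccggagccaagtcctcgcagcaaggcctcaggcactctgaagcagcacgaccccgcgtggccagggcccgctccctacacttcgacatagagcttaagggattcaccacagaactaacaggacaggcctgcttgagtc
The Tfcp2l1 motif with at most 2 mismatches is shown 90127 bp from the TSS of Tmem121, at chr12:113276057-113276236.
Tmem121: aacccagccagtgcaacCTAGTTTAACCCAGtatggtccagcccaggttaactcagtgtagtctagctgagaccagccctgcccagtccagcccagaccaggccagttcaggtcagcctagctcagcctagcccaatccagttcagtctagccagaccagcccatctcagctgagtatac

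Both libraries from 3% oxygen held fewer regions, 46211 in Hyp-Pro and 37020 in Hyp-Imm against 67955 in Norm-Pro and 60157 in Norm-Sen. Because a summit holds a whole number of reads, the fold values move in steps that give the depth, and by these steps the background was 0.956 reads per position in Hyp-Pro and 0.445 in Hyp-Imm, against 1.24 in Norm-Pro and 1.77 in Norm-Sen. Depth thus moved with the oxygen labels, and its part in the size of the set was not tested beyond the peak thresholds and equal peak numbers given here. At their own TSSs within 1 kb, 6 of 10 fibroblast markers had a peak in Hyp-Pro and 3 in Hyp-Imm, against 6 in Norm-Pro and 7 in Norm-Sen. Of the 24 markers of epithelial, blood, endothelial and neural cells, 6 had one in Hyp-Pro and 4 in Hyp-Imm, against 7 in Norm-Pro and 6 in Norm-Sen. Twist1, Vim and Col1a2 had a promoter peak in all 4 libraries, while Col3a1 and Prrx1 had none in any. The marker counts were not set against the share of all promoters with a peak in each library, so they do not settle cell identity.

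The 852 regions were the smallest of the 6 sets open in exactly 2 libraries. Regions open only in 20% oxygen numbered 4470, or 2.62% of the pool. The 4 sets that pair 1 library of each oxygen level held 2947 (Hyp-Pro and Norm-Pro), 2849 (Hyp-Pro and Norm-Sen), 1264 (Hyp-Imm and Norm-Pro) and 1025 regions (Hyp-Imm and Norm-Sen). Among the regions that Hyp-Imm shared with exactly 1 other library, the partner was Hyp-Pro in 27.1% (25.6 to 28.7) of 3141, against Norm-Pro in 40.2% (38.5 to 42.0) and Norm-Sen in 32.6%. Set against the number of regions each partner had, these shares were close to each other, at 1.84% (1.72 to 1.97) of the regions of Hyp-Pro, against 1.86% (1.76 to 1.96) of Norm-Pro and 1.70% (1.60 to 1.81) of Norm-Sen. The 3 intervals overlapped, so that a preference of Hyp-Imm for the other 3% oxygen library was not detectable once the size of the partner was taken into account. Hyp-Pro shared 852 of the 37020 regions of Hyp-Imm in this way (2.15 to 2.46%), against 4.34% (4.18 to 4.49) of Norm-Pro and 4.74% (4.57 to 4.91) of Norm-Sen, with the 3% oxygen partner lowest. With 37770 peaks taken from each library, those with the highest −log10 q, 955 regions were open only in 3% oxygen and 2284 only in 20% oxygen.

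**Figure D1:**
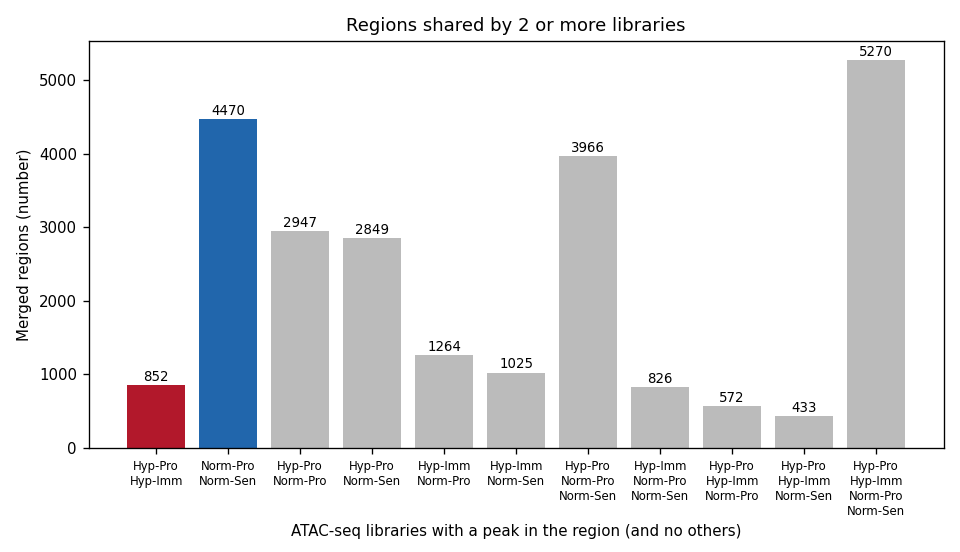
Number of merged regions open in each combination of 2 or more ATAC-seq libraries, named by their labels; each bar is 1 combination and its height a count, with no replicate error. The 852 regions open only in 3% oxygen stand at the left beside the 4470 open only in 20% oxygen, and they are the lowest of the 6 bars for exactly 2 libraries.

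The peaks of the regions open only in 3% oxygen were about as strong as the median peak of their libraries, a description only, since the rule used these peaks. Their median −log10 q was 3.84 in Hyp-Pro, from 1.49 to 19.5, and 3.11 in Hyp-Imm, from 1.44 to 10.4, where a value of 2 is an FDR of 1 in 100. Over all peaks of a library the median was 3.84 in Hyp-Pro and 2.91 in Hyp-Imm. Median fold enrichment over the local background was 4.73 in Hyp-Pro and 4.84 in Hyp-Imm. Where the fold gave a whole number of steps, the summit of a region held a median of 9 reads in Hyp-Pro, from 7 to 23 over 163 regions, and of 6 reads in Hyp-Imm, from 5 to 11 over 151 regions. Peaks on whole steps therefore rested on few reads, and 85 of those 151 regions had at most 6 in Hyp-Imm. Reads over the summits of the other regions were not recovered. Regions open in all 4 libraries had a median −log10 q of 7.70 in Hyp-Pro and 4.56 in Hyp-Imm. A −log10 q of at least 3 in both libraries was reached by 381 of the 852 regions, at least 5 by 26 and at least 10 by 0.

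Within the set, strength in 1 library moved only weakly with strength in the other, a description only, since the rule used these peaks. Across the 852 regions the −log10 q values of Hyp-Pro and Hyp-Imm had a Spearman rho of 0.13 and a Pearson r of 0.17, against 0.41 and 0.82 across the 5270 regions open in all 4 libraries. These are correlations across regions of the same 2 libraries, which are not independent replicates, and they share the limits of depth. The quartiles of −log10 q across the 852 regions were 3.06 to 4.72 in Hyp-Pro and 2.59 to 3.88 in Hyp-Imm. Across the regions open in all 4 libraries they were wider apart, at 5.31 to 11.2 in Hyp-Pro and 3.36 to 6.55 in Hyp-Imm. The part of the narrower range in the lower correlation was not tested. The summits of the 2 peaks lay a median of 42 bp apart (38 to 45), and 58.0% (54.6 to 61.3) lay at most 50 bp apart. For regions open only in 20% oxygen the summits of Norm-Pro and Norm-Sen lay a median of 40.5 bp apart (39 to 42).

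**Figure D2:**
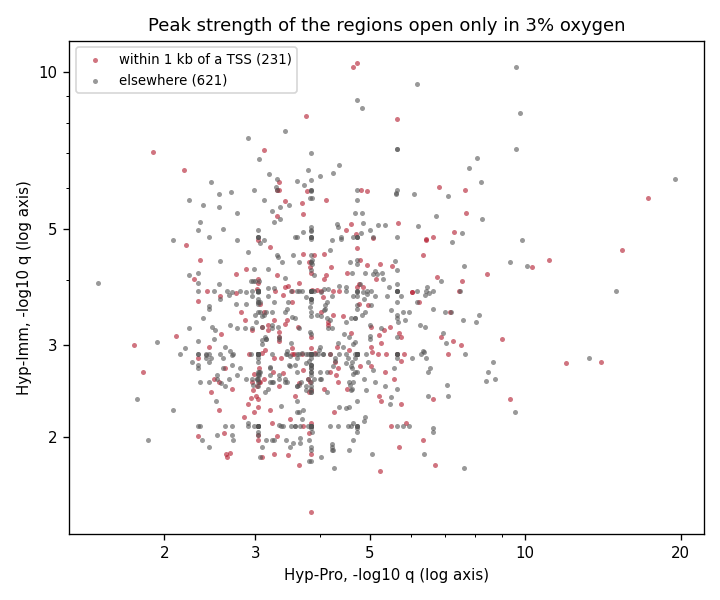
−log10 q of each region open only in 3% oxygen in Hyp-Pro (horizontal, log axis) and in Hyp-Imm (vertical, log axis), with 1 point per region, red for the 231 within 1 kb of a TSS and grey for the other 621. The points show little slope (Spearman rho 0.13), and many share a value on 1 axis and line up in rows and columns.

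Values on both sides of the rule's limits overlapped. The member with the lowest value, 69 bp from a 20% oxygen peak and nearest to Wdr75, had a −log10 q of 3.84 in Hyp-Pro and 1.44 in Hyp-Imm. The next, nearest to 4921539E11Rik, had 1.49 in Hyp-Pro and 3.94 in Hyp-Imm. Just outside, the region nearest to Tmem39a had 5.60 in Hyp-Pro and 2.89 in Hyp-Imm, and was left out because of a peak in Norm-Pro at 1.73. Of the 1005 regions open in both 3% oxygen libraries and in 1 of the 20% oxygen libraries, 8 were left out for a peak with a −log10 q under 2 and 164 for one under 3.

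Among the 10 strongest regions, ranked by the lower −log10 q of the 2 libraries, 7 were at least 50% repeat-masked and 8 lay 500 bp or more from any 20% oxygen peak. The region near Rbbp6, whose product binds the retinoblastoma protein, had a −log10 q of 9.59 in Hyp-Pro and 10.2 in Hyp-Imm, with 21.3% of its 49-base words occurring once in the reference. The next, between genes 164360 bp from 1700008P02Rik, had 9.78 and 8.35 in these libraries, with 15 reads over the summit in Hyp-Pro and 11 in Hyp-Imm. All bases of that region were repeat-masked, and 57.0% of its 49-base words occurred once in the reference. The region near Angptl1, a secreted angiopoietin-like protein, had 9.58 in Hyp-Pro and 7.12 in Hyp-Imm. A region 271574 bp from Mki67, the gene of the proliferation antigen Ki-67, had 8.07 in Hyp-Pro and 6.85 in Hyp-Imm. The highest single value of the set, 19.5, was reached in Hyp-Pro by a region 508863 bp from Tusc1, with 23 reads over its summit, while Hyp-Imm had 6.24 there. In the Tusc1 region 65.6% of the bases were repeat-masked, and 62.6% of the 49-base words occurred once in the reference. The other 5 were nearest to Poll, a DNA polymerase of repair (7.78 in Hyp-Pro, 6.54 in Hyp-Imm), to Cyp3a44, a cytochrome P450 (8.20 and 6.17), to Ube2ql1 (6.16 and 9.48), and at the TSSs of Zfp821 (6.82 and 6.03) and Gm10406 (7.65 and 5.94). No 20% oxygen peak lay closer than 137525 bp to the Gm10406 region, whereas one lay 16 bp from the Zfp821 region.

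Internally repeated sequence was frequent in the regions open only in 3% oxygen. In 171 of 849 with sequence, 20.1% (17.5 to 23.0), a word of 20 bases occurred more than once within the region, against 6.17% (5.49 to 6.92) of the regions open only in 20% oxygen and 9.01% (8.88 to 9.15) of the pool. Of these 171 regions 152 lay more than 1 kb from a TSS and 19 within 1 kb. The share differed among the sets that hold Hyp-Imm: it was 16.3% (14.3 to 18.4) in the set of Hyp-Imm and Norm-Pro, 11.2% (9.36 to 13.3) in that of Hyp-Imm and Norm-Sen and 16.9% (16.5 to 17.4) in Hyp-Imm alone. In regions open in all 4 libraries, with a median width of 400 bp, it was 5.69% (5.08 to 6.36). It was 9.78% (9.44 to 10.1) in Hyp-Pro alone and 8.22% and 9.01% in the sets of Hyp-Pro with 1 library from 20% oxygen. The interval of the 852 regions lay above those of the other sets named except the set of Hyp-Imm and Norm-Pro, which it overlapped. The median width was 171 bp in the regions open only in 3% oxygen, against 190 bp in those open only in 20% oxygen and 176 bp in the set of Hyp-Imm and Norm-Pro. Regions of the pool, at 114 bp, of Hyp-Imm alone, at 102 bp, and of Hyp-Pro alone, at 109 bp, were narrower and leave less room for a word to recur, so that their shares are not matched for width. At least 50% of the bases were repeat-masked in 26.6% (23.7 to 29.7) of the regions, against 14.2% (13.2 to 15.3) of the regions open only in 20% oxygen, 25.5% (23.1 to 28.0) in the set of Hyp-Imm and Norm-Pro, 13.6% and 16.5% in the sets of Hyp-Pro with Norm-Pro and with Norm-Sen, and 24.6% of the pool. Every 49-base word occurred once in the reference in 79.0% (76.1 to 81.7) of the regions, against 89.9% (89.0 to 90.8) of those open only in 20% oxygen and 79.5% (77.2 to 81.7) in the set of Hyp-Imm and Norm-Pro, so that this share was not particular to 3% oxygen. Under 50% of the words did so in 15 of the regions. Of the 50 strongest regions, a number chosen after the values were seen, 25 held a 20-base word more than once. The part of read placement in repeats was not tested beyond the 671 regions in which every word was unique.

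Regions open only in 3% oxygen lay less often at promoters than those open only in 20% oxygen, and more often than the pool. Within 1 kb of a TSS of a protein-coding gene lay 231 of 852, 27.1% (24.2 to 30.2), against 34.4% (33.0 to 35.8) of the regions open only in 20% oxygen and 14.4% of the pool. Of the 4 sets that mix oxygen levels, Hyp-Imm and Norm-Pro had 25.8% (23.4 to 28.3), Hyp-Imm and Norm-Sen 23.8% (21.2 to 26.5) and Hyp-Pro and Norm-Sen 30.1% (28.4 to 31.8), with intervals that overlapped that of the 852 regions. Hyp-Pro and Norm-Pro had 36.7% (35.0 to 38.5), above it without overlap. With equal peak numbers the shares were 35.5% (32.5 to 38.6) in 3% oxygen and 45.7% (43.6 to 47.7) in 20% oxygen. In regions of unique words alone they were 32.2% (28.7 to 35.9) in 3% oxygen and 37.3% (35.8 to 38.8) in 20% oxygen, with intervals that just overlapped. Introns held 26.3%, exons 3.40% and stretches between genes 42.8% of the regions, and 3 lay on unplaced sequence. The median distance to a TSS was 20735 bp (17030 to 26171), against 12266 bp (11133 to 13537) for regions open only in 20% oxygen. It was 22034 bp (19094 to 26189) for Hyp-Imm and Norm-Pro and 21846 bp (18656 to 26182) for Hyp-Imm and Norm-Sen. For Hyp-Pro it was 10454 bp with Norm-Pro and 16457 bp with Norm-Sen, and in the pool 33158 bp, so the distance was not particular to 3% oxygen. Median GC content was 57.7% (56.8 to 58.4), against 58.3% (58.1 to 58.6) in the regions open only in 20% oxygen and 53.9% in the pool. On single autosomes between 0.336% and 0.644% of the pool regions were members, and the X chromosome held 20 members, 0.381% (0.233 to 0.588) of its pool regions. No member lay on the Y chromosome, which had 42 pool regions and where 0 members allow a share of up to 8.41%. Neighbouring members lay a median of 1934 kb apart, and 2 pairs lay within 10 kb of each other.

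**Figure D3:**
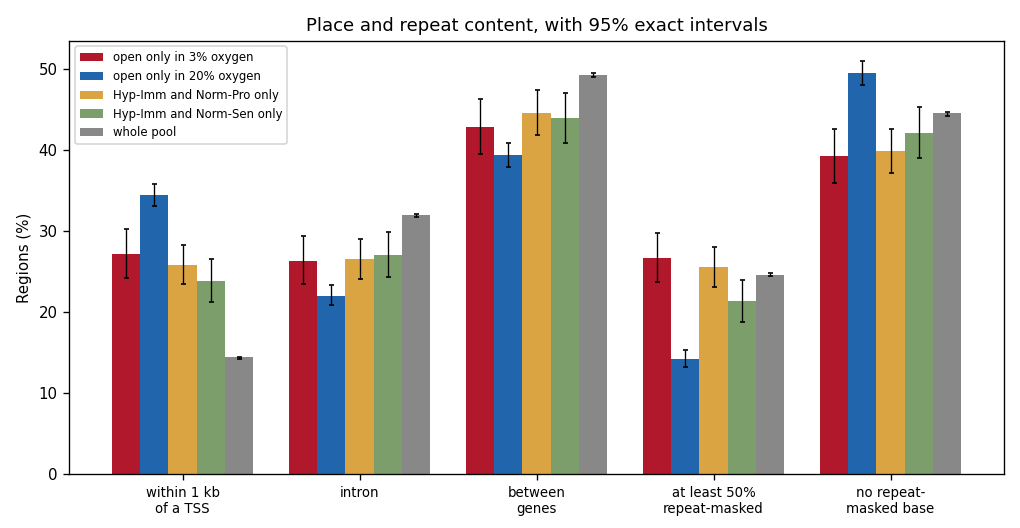
Share of regions (vertical, %) in 5 classes of place and repeat content, for regions open only in 3% oxygen, only in 20% oxygen, in Hyp-Imm with 1 library from 20% oxygen, and in the whole pool; bars are shares and lines 95% exact intervals. At a TSS the red bar for 3% oxygen (27.1%) stands near those of the mixed Hyp-Imm sets (25.8% and 23.8%) and below the blue bar for 20% oxygen (34.4%), and for at least 50% repeat-masked it stands above the blue bar (26.6% against 14.2%).

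Most of the promoter members lay beside a peak of 20% oxygen. A peak of a 20% oxygen library lay closer than 500 bp in 152 of the 231 regions at a TSS, 65.8% (59.3 to 71.9), and closer than 100 bp in 79. Away from TSSs this held for 81 of 618 regions, 13.1% (10.5 to 16.0). The median distance to such a peak was 235 bp at TSSs and 7007 bp elsewhere. In the mirror set, 753 of the 1538 promoter regions open only in 20% oxygen (46.4 to 51.5%) and 287 of the 2916 other regions, 9.84%, had a 3% oxygen peak closer than 500 bp, from libraries that hold fewer peaks. Without every region that had a 20% oxygen peak within 500 bp, 619 of the 852 remained, and 12.8% of these lay at a TSS.

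**Figure D4:**
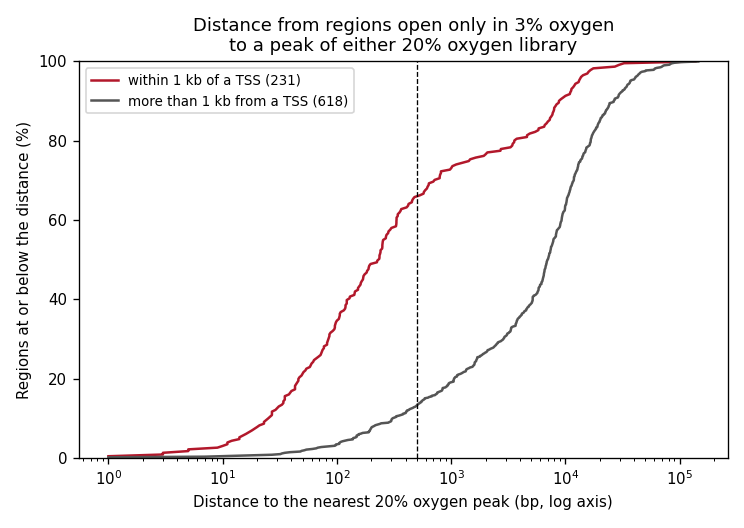
Share of the regions open only in 3% oxygen (vertical, %) whose nearest peak of either 20% oxygen library lies within a given distance (horizontal, bp, log axis), in red for the 231 regions within 1 kb of a TSS and in grey for the 618 farther away; the dashed line marks 500 bp. At that line the red curve has reached 65.8% and the grey curve 13.1%.

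Promoter regions open only in 3% oxygen were nearest to 231 genes. For 45 of these genes, no 20% oxygen peak lay within 1 kb of any TSS of their protein-coding transcripts. The same count was not made for the 20% oxygen set or over all genes, so it cannot be called particular to 3% oxygen. The strongest promoter regions of the 45 genes were at Gm10406 and at Cyp7b1, an oxysterol hydroxylase of bile acid synthesis. The Cyp7b1 region had a −log10 q of 4.93 in Hyp-Pro and 5.93 in Hyp-Imm. Among the others, chosen after their values were seen, the histone gene Hist1h2be had 4.65 in Hyp-Pro and 10.2 in Hyp-Imm. Foxj1, the regulator of motile cilia, had 4.51 and 4.13 in these libraries, the small heat shock protein gene Hspb1 4.15 and 3.28, and Nos3, the endothelial nitric oxide synthase, 3.03 and 3.84. Nnt, a mitochondrial transhydrogenase, had 5.32 in Hyp-Pro and 3.21 in Hyp-Imm, and Gas6, a ligand of the Axl receptor family, 2.75 and 4.11. Hist1h2be belongs to a multigene family, and every 49-base word of its region occurred once in the reference.

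The 10 strongest promoter regions were at Zfp821, Gm10406, Ccsap, Trmt13, Hs3st3a1, BC067074, Znrf1, Cyp7b1, Gm47996 and Acly. Ccsap, whose product binds centrioles and the spindle, had the highest value of them in Hyp-Pro, 17.3, with 5.75 in Hyp-Imm and a 20% oxygen peak 239 bp away. Trmt13 had 5.65 in Hyp-Pro and 8.12 in Hyp-Imm with the nearest 20% oxygen peak 2075 bp away, and BC067074 had 5.66 and 5.15 with one 3310 bp away. Hs3st3a1 had 7.68 in Hyp-Pro and 5.36 in Hyp-Imm, Znrf1, a ubiquitin ligase gene, 7.27 and 4.94, and Acly 5.07 and 4.82, with 20% oxygen peaks 331, 9 and 478 bp away. Only 43.4% of the 49-base words in the Gm47996 region occurred once in the reference, so its peaks of 6.63 and 4.84 are uncertain.

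Genes of the hypoxia response had a share of the regions that was not distinguished from that of all genes. In the domains of 26 HIF targets, which reach from 5 kb upstream and 1 kb downstream of a gene's TSS to the next gene's domain or at most 1 Mb, lay 3 of 419 pool regions, 0.716% (0.148 to 2.08), against 0.501% (0.468 to 0.536) for all 21911 protein-coding genes. A region was found for 3 of the 26 genes, 11.5% (2.45 to 30.2), against 6.14% (5.82 to 6.46) of all genes. Such shares of genes, here and below, are not matched for the number of pool regions per gene. The domains of these 26 genes held 419 pool regions, those of all 21911 genes 167337. The region at the TSS of Ldha, the lactate dehydrogenase subunit of anaerobic glycolysis, had a −log10 q of 3.47 in Hyp-Pro and 1.85 in Hyp-Imm, held the HIF core and lay 3 bp from a 20% oxygen peak. The regions of Kdm3a, a histone demethylase, and of Ndrg1, a stress-response gene, lay 53.1 kb and 128 kb from the TSS without the HIF core. The Ndrg1 region had 4.95 in Hyp-Pro and 3.76 in Hyp-Imm, and the Kdm3a region had a fold of 4.13 in Hyp-Pro and 4.15 in Hyp-Imm. With regions assigned to the nearest TSS, or to TSSs within 50 kb, the list held 1 region in place of 3. The domains of 17 glycolysis enzymes held 0 of 170 pool regions, which allows a share of up to 2.15%, and those of 12 HIF factors and oxygen sensors 0 of 180, which allows up to 2.03%. Among 15 antioxidant and NRF2 target genes, Keap1, the sensor that holds NRF2 inactive, had a region at its TSS with 3.96 in Hyp-Pro and 3.82 in Hyp-Imm and a 20% oxygen peak 130 bp away.

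The lists tied to the fate of these cells held single regions as well. As a share of pool regions, the interval of every list included the value over all genes. Of 24 pluripotency and stemness genes 4 had a region: Klf4 (4.25 in Hyp-Pro, 2.74 in Hyp-Imm, 51.1 kb from the TSS), Myc (2.88 and 3.79, 82.6 kb), Dppa4 (2.55 and 5.52, 16.8 kb) and Sox9 (3.05 and 3.98, 432 kb). The share of pool regions was 0.416% (0.113 to 1.06). Among the Polycomb components, Eed, a core subunit of the complex that methylates histone H3, had 1 region with 3.49 in Hyp-Pro and 5.56 in Hyp-Imm. The Eed region lay 42.0 kb from the TSS and 27 bp from a 20% oxygen peak. Among 20 CDK inhibitors and p53 targets, Zmat3 had 2 that also count for its neighbour Kcnmb2, Bbc3, which encodes Puma, 1 within 3.51 kb of the TSS (3.85 and 3.41) and Ccng1 1 at 877 kb, together 1.15% (0.313 to 2.91). A 20% oxygen peak lay 190 bp from the Bbc3 region. Of 25 secreted factors of senescent cells, 4 had a region. That of the chemokine gene Cxcl5 lay at its TSS, with 3.31 in Hyp-Pro, 5.94 in Hyp-Imm and a 20% oxygen peak 456 bp away. The other 3 were Cxcl12, Igfbp7 and Mmp10. The list's regions were 0.851% (0.232 to 2.16) of its pool regions, against 0.501% over all genes. Of its genes 16.0% (4.54 to 36.1) had one, against 6.14%, not matched for the 470 pool regions in the domains of these 25 genes. Among 22 cell cycle and replication genes, Mki67 was the 1 with a region, described above.

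In tissue lists between 0.333% and 1.03% of the pool regions were open only in 3% oxygen, against 0.501% over all genes. The domains of 20 fibroblast and matrix genes held 3 regions (Dcn, Postn and Twist1), those of 15 muscle and cartilage genes 2 (Pax3 and Sox6), those of 12 neural genes 2 (Rbfox3 and Sox1) and those of 19 growth factors and receptors of fibroblasts 2 (Fgf10 and Igf2). The Igf2 region lay 63 bp from a TSS and 8195 bp from the nearest 20% oxygen peak, with 2.55 in Hyp-Pro and 2.26 in Hyp-Imm. Among 17 AP-1, TEAD and RUNX factors, 4 had a region, with 5 regions or 1.30% (0.423 to 3.00) of their pool regions. The share of genes, 23.5% (6.81 to 49.9), lay above the 6.14% over all genes, without adjustment for the 14 lists or for domain size. The domains of these 17 genes held 385 pool regions, against 167337 for all 21911 genes, so more of them could hold a region. The list held 3 regions by the nearest TSS and 2 within 50 kb of a TSS. Tead1, which binds DNA for the YAP coactivator, had 2, and Fosl2, Junb and Runx1 had 1 each. A region 248 bp from a TSS of Tead1 had 3.48 in Hyp-Pro and 3.90 in Hyp-Imm, with a 20% oxygen peak 53 bp away. Over all protein-coding genes 1345 of 21911, 6.14%, had a region in their domain, of which 1280 had 1, 62 had 2 and 3 had 3. Those with 3 were Bend5, Kcnmb2 and Ttll11, out of 79, 70 and 40 pool regions in their domains. Of the 3 pool regions in the domain of Acer1, an alkaline ceramidase gene, 2 were open only in 3% oxygen.

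The HIF core was found less often in regions open only in 3% oxygen than in those open only in 20% oxygen. In the 200 bp around the centre, 27.4% (24.5 to 30.6) of the regions held it, against 35.5% (34.1 to 36.9) in 20% oxygen, 27.2% (24.8 to 29.7) in the set of Hyp-Imm and Norm-Pro, 30.1% (27.3 to 33.0) in that of Hyp-Imm and Norm-Sen, 33.4% (31.7 to 35.1) in that of Hyp-Pro and Norm-Pro, 32.6% (30.9 to 34.4) in that of Hyp-Pro and Norm-Sen, 56.6% in regions open in all 4 libraries and 24.3% in the pool. At TSSs the shares were 42.0% (35.5 to 48.6) in 3% oxygen and 55.6% (53.1 to 58.1) in 20% oxygen, without overlap of the intervals. In the mixed sets they were 49.1% (43.5 to 54.6) for Hyp-Imm and Norm-Pro and 50.8% (47.8 to 53.8) for Hyp-Pro and Norm-Pro, which overlapped the 3% oxygen set, and 55.3% (48.9 to 61.7) for Hyp-Imm and Norm-Sen and 52.6% (49.2 to 55.9) for Hyp-Pro and Norm-Sen, which did not. Away from TSSs they were 22.0% (18.8 to 25.5) in 3% oxygen and 24.9% (23.3 to 26.5) in 20% oxygen, and the intervals overlapped. In windows without a repeat-masked base the core was in 34.8% (29.6 to 40.3) in 3% oxygen and 44.6% (42.5 to 46.8) in 20% oxygen. The core holds a CpG, and the median ratio of observed to expected CpG was 0.240 (0.219 to 0.275), against 0.342 (0.324 to 0.358) in 20% oxygen. In the mixed sets with Hyp-Imm the ratio was 0.240 (Norm-Pro) and 0.239 (Norm-Sen), so the low value was not particular to 3% oxygen. With Hyp-Pro it was 0.321 (Norm-Pro) and 0.273 (Norm-Sen), and in the pool 0.177. The part of CpG content in the HIF core shares was not tested.

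The NFY and ETS motifs of promoters were also scarcer than in the 20% oxygen set, while the intervals of the 4 mixed sets overlapped that of the 3% oxygen set for ETS, and for NFY all but that of Hyp-Pro and Norm-Pro, 6.42% (5.56 to 7.37). The NFY motif, GCCAAT, was in 3.65% (2.49 to 5.14) of the regions, against 6.67% (5.95 to 7.44) in 20% oxygen and 6.02% of the pool, and at TSSs in 3.46% (1.51 to 6.71) against 10.1% (8.68 to 11.8). The ETS motif, CCGGAAG, was in 3.30% (2.20 to 4.73), against 5.70% (5.04 to 6.42) in 20% oxygen and 2.26% of the pool. At TSSs it was in 14 of 231 (3.35 to 9.96%), against 203 of 1538 in 20% oxygen and 8.76% of the pool regions there. The Sp and Klf motif, GGGCGGG, was in 12.5% (10.3 to 14.9), against 14.5% in 20% oxygen and 7.38% of the pool.

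Among motifs of distal elements, that of TEAD was rarer and those of AP-1 and CTCF were not distinguished from the 20% oxygen set. TEAD, ACATTCC, was in 1.53% (0.818 to 2.60), against 3.57% (3.04 to 4.16) in 20% oxygen, between 2.83% and 3.41% in the 4 mixed sets, all with intervals that overlapped that of the 3% oxygen set, and 2.89% of the pool. AP-1, which reads growth and stress signals at fibroblast enhancers, was in 7.54% (5.85 to 9.52), against 9.03% (8.20 to 9.91) in 20% oxygen, 5.08% (3.93 to 6.44) in the set of Hyp-Imm and Norm-Pro, 5.37% (4.07 to 6.93) in that of Hyp-Imm and Norm-Sen and 5.94% of the pool. The sets of Hyp-Pro with Norm-Pro, 12.8% (11.7 to 14.1), and with Norm-Sen, 11.4% (10.3 to 12.7), lay above it without overlap. More than 1 kb from a TSS it was in 9.87% (7.63 to 12.5), against 12.3% (11.2 to 13.6) in 20% oxygen and 6.50% of the pool. CTCF, which anchors chromatin loops, was in 7.42% (5.75 to 9.39), against 9.16% (8.33 to 10.0) in 20% oxygen and 4.45% of the pool. RUNX, TGTGGTT, was in 2.36% (1.44 to 3.61) against 3.28% (2.77 to 3.84), NFAT, TGGAAAA, in 2.24% (1.35 to 3.47) against 2.22% (1.81 to 2.70), and the E-box, which was CACGTG, or CAGCTG, or CACCTG with its complement CAGGTG, in 29.1% (26.1 to 32.3) against 31.5% (30.2 to 32.9). In the pool the shares of these were 3.90%, 2.82% and 31.4%. Of these E-boxes CACGTG overlaps the HIF core. The cyclic AMP response element was in 7 regions, 0.824% (0.332 to 1.69), against 1.01% (0.738 to 1.35) in 20% oxygen and 0.399% of the pool.

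**Figure D5:**
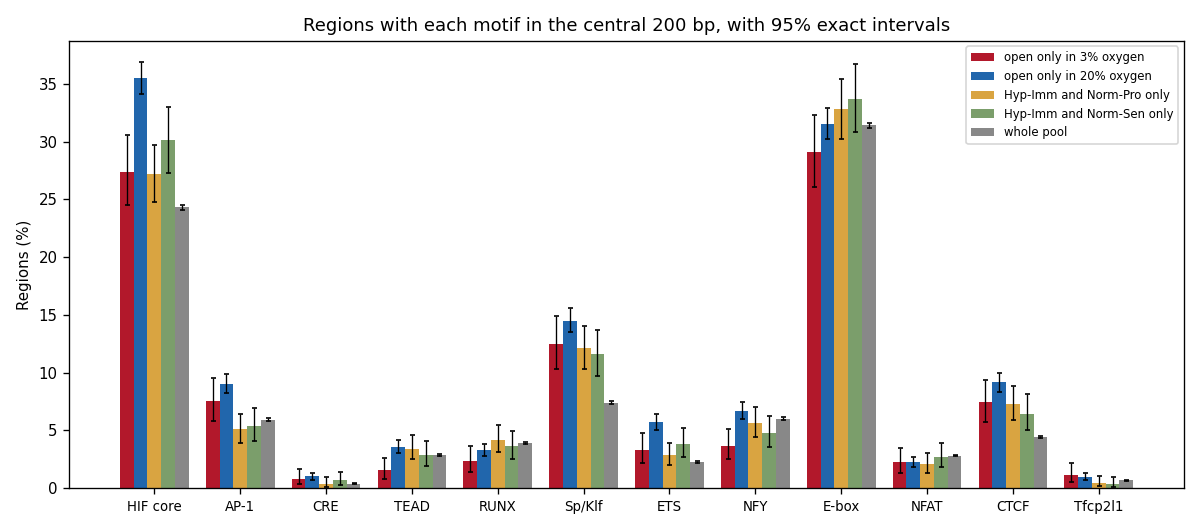
Share of regions (vertical, %) with each of 12 motifs in the central 200 bp, for regions open only in 3% oxygen, only in 20% oxygen, in Hyp-Imm with 1 library from 20% oxygen, and in the whole pool; bars are shares and lines 95% exact intervals. For the HIF core the red bar (27.4%) lies under the blue one (35.5%) with intervals apart, as it does for TEAD, ETS and NFY, while for AP-1, CTCF, the E-box and Tfcp2l1 the intervals overlap.

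No region open only in 3% oxygen lay under a Tfcp2l1 ChIP-seq peak. In the Hyp-Imm ChIP-seq library this was 0 of 852, and in the Norm-Sen ChIP-seq library also 0 of 852, which allows a share of up to 0.432% in each. Of the pool, 0.172% of the regions lay under a peak of either library, and of the regions open only in 20% oxygen 17 did, 0.380% (0.222 to 0.608), so that at this number of regions a difference was not detectable. Within 1 kb of a peak lay 2 regions, 1 at 216 bp from a TSS of Mgea5, which removes the O-GlcNAc mark from proteins, and 1 at 5872 bp from the TSS of Psma3, a proteasome subunit gene. The Mgea5 region had a −log10 q of 6.42 in Hyp-Pro and 4.80 in Hyp-Imm. The Tfcp2l1 motif was searched as a 14-base consensus with at most 2 mismatches in the central 200 bp. The paper, by its own search, reports the motif in a far larger share of its ATAC-seq peaks, so the shares here cannot be compared with it. By the search used here the motif was in 10 regions, 1.18% (0.566 to 2.16), against 0.943% (0.680 to 1.27) in 20% oxygen and 0.671% of the pool. Of these 10, 4 lay at TSSs, those of Ccsap, Auts2, Mindy1 and Tead1, and 6 elsewhere, nearest to Tmem121, Prr5l, Cylc2, Uts2, Zfp804a and Postn.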

How the data were processed

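ATAC-seq and Tfcp2l1 ChIP-seq peak lists of MEFs were used, with 1 library per condition. The ATAC-seq reads were mapped by the authors with Bowtie2 to GRCm38 (mm10), without pairs separated by over 2 kb. Tn5 cutting positions were taken from the read starts, and MACS2 called the peaks of each library (FDR 0.05). For ChIP-seq, Bowtie and MACS2 stand in the submitters' processing notes, the deposited files name a q of 0.01, and the build was not given in the sources used here, so GRCm38 was assumed where ChIP-seq and ATAC-seq peaks were overlapped. In the deposited files the fold was read as the ratio of the summit's pileup plus 1 to the local background plus 1. It was made by the authors with MACS2, as were the −log10 p and −log10 q of each peak. The deposited score was not used. All 21 chromosomes of the reference contain every ATAC-seq peak of their name.

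Peaks were merged, and regions were described with Python 3.11.15, pandas 2.3.3, scipy 1.17.1, numba 0.67.0, pysam 0.24.0 and samtools 1.23.1. Genes are those of GENCODE vM21, assigned by the rule of GREAT. Repeats are the soft-masked bases of the RefSeq copy of GRCm38, and words of 49 bases were counted over the 21 chromosomes. Both strands of the central 200 bp of a region were searched for motifs. Fold values were called whole steps within 0.0005. Merging, the step method and the motif search were tested on simulated data. The members and lists were chosen with earlier results of these data known. Named are the 10 strongest regions, the 10 strongest at TSSs, regions near ChIP-seq peaks, up to 4 members of each list and the genes with most regions, of which 62 tied at 2 are given as a count with Acer1 named after its values were seen; other genes named for an open promoter were chosen after their values were seen. No region of 1 chromosome is printed, and 1 list member is not reported here. Alternatives covered peak thresholds, equal numbers of peaks, the overlap rule, merging distance, conditions by file name, autosomes, motif windows and gene rules, and regions of unique words, which was added after the data were seen.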

Additional observations from a re-analysis of the deposited data

How the results depend on the processing

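No paired analysis was possible because each condition has 1 library. The number of regions open only in 3% oxygen, 852, was 480 with a −log10 q of at least 3 in all 4 libraries, 92 with at least 5, 381 with at least 3 in 3% oxygen alone and 4470 with conditions from the file names; under the other alternatives it stayed between 619 and 955. The share within 1 kb of a TSS, 27.1%, was 36.0% and 55.4% at the 2 stricter thresholds, 35.5% with equal peak numbers, 34.4% by the file names, 19.3% when merging peaks up to 100 bp apart, 12.8% with no 20% oxygen peak within 500 bp and 32.2% with unique words only. In the same order the median TSS distance, 20735 bp, was 12072, 38.0, 12876, 12266, 27516, 35138 and 16464 bp, so place depended on the rule. Median GC content, 57.7%, was 59.1% and 63.3% at the stricter thresholds, 59.2% with equal peak numbers, 55.9% with wider merging, 55.7% without near 20% oxygen peaks and 59.0% with unique words. Under a ChIP-seq peak lay 1 region with a −log10 q of at least 5, 2 within 1 kb and 17 by the file names. The share with the HIF core was 35.6% at −log10 q of at least 5, 23.2% without near 20% oxygen peaks and 34.8% in windows free of repeats. Recomputed for both sets, the TSS and HIF core shares stayed lower in 3% than in 20% oxygen under each of these rules that gives both sets, other than the file names, which exchange them. Of 156 motif shares 130 stayed within the interval of the main value, and of 28 list counts 16 stayed within 1.5 times of it. At 0.445 reads per position, peaks of Hyp-Imm on whole steps had a median of 6 reads, and absence of a peak is not absence of open chromatin. The causes of these shifts were not tested.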
